A study of Homo sapiens with 24 samples.

Results

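The proteasome subunit genes described here are the 44 genes of the deposited tables whose symbol is PSMA, PSMB, PSMC, PSMD or PSME followed by a number, among 60658 genes in all. They were measured in poly(A)-selected RNA of human cells labelled SH-SY5Y, a neuroblastoma line, in which the circular RNA ciRS-7 (CDR1as) was depleted. There were 4 knockdown setups with a KD and a non-targeting control (NTC) group each and 3 libraries per group, so 8 groups and 24 libraries. In the agoshRNA groups a vector expressing an Argonaute-processed hairpin was transfected. In the gRNA and pre-gRNA groups a plasmid for CasRx, an RNA-cutting nuclease fused to GFP, was transfected together with a plasmid expressing a mature or a precursor guide. The syn-gRNA groups received a chemically synthesised guide, per the series title, and how it was delivered is not described in the labels. RNA of all groups was taken 48 h after transfection, and the labels mention no sorting of transfected cells. The labels do not state that the 3 libraries of a group came from separate cultures, so p-values measure the spread between these libraries, which may be technical. Libraries carry the letters A, B and C of the column names, which nothing ties to the replicate numbers of the labels.

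The proteasome is the large protease that degrades proteins tagged with ubiquitin. Its barrel-shaped core is a stack of rings of alpha subunits (PSMA), which form the gate, and of beta subunits (PSMB), some of which carry the proteolytic sites. A regulatory particle caps the core: its base holds the ATPases that unfold substrates (PSMC) and several PSMD subunits, and its lid holds further PSMD subunits, among them PSMD14, which removes ubiquitin. In cells exposed to interferon gamma the catalytic beta subunits PSMB5, PSMB6 and PSMB7 are replaced by PSMB8, PSMB9 and PSMB10, which makes the immunoproteasome, and the PSME genes encode activators that can cap the core in place of the regulatory particle.

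Library totals ranged from 10994974 to 16233777 counts, of which the 44 genes took 0.348 to 0.447%. The target is barely seen in poly(A) RNA: CDR1-AS had 0 to 16 counts per library, so these libraries hardly check the depletion. Markers went against the labelled cell type in part. Of 10 genes of noradrenergic neuroblastoma, 1 had a mean over 10 CPM, counts scaled to a common library total, and 7 had a mean under 1, with PHOX2A at 0 to 5 counts, while 4 of 5 kidney-lineage markers exceeded 10 CPM (HOXA9 at a mean of 98.2). PAX8, the other kidney-lineage marker, had 0 to 1 counts. Of 6 genes of mesenchymal neuroblastoma, 5 had a mean over 10 CPM and 0 had a mean under 1, with PRRX1 at 1.77. Leukocyte markers, relevant to the immunoproteasome, summed to 1.97 to 7.07 CPM. The part of cell identity in the results below was not tested.

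Promoter sequences describe these genes outside the measured values, and none of the motifs searched was found in all of them. RefSeq entries (GRCh38.p14, another build than the hg19 of the count tables) were found for 38 of the 44 genes, and the 250 bases before each start were searched on both strands for 6 short motifs. The CCAAT box (CCAAT) was found in 18 of 38 genes (47.4%, against 37.0% of 27305 genes), and the GC box (GGGCGG) in 23 (60.5%, against 46.2%). The core of the antioxidant response element (TGACNNNGC or TGAGNNNGC), the kind of element through which NFE2L1 is known to raise proteasome genes, was found in 17 (44.7%, against 28.1%). The ETS core (CCGGAAG) was found in 9 (23.7%, against 10.2%), the interferon-gamma site core (TTCNNNGAA) in 7 (18.4%, against 8.09%) and the interferon-stimulated element core (GAAA, any 2 bases, GAAA) in 4, PSMA4, PSMB4, PSMB10 and PSME2 (10.5%, against 3.71%). A match is a description of letters, not a binding site, and motifs may overlap. The entries of the members had a median of 60.8% GC and 18 CpG (C followed by G), beside 58.0% and 11 over all entries. The 27305 genes were not limited to expressed ones, and the part of base content in the shares was not tested. Below are the constitutive and immune catalytic genes PSMB5, PSMB9 and PSMB10, and the activators PSME3 and PSME4, on which the results turn, each read 5′ to 3′ on the gene's strand, with matches of any of the 6 motifs in capitals. For PSMB5, which has several entries, the one farthest upstream is shown.
PSMB5: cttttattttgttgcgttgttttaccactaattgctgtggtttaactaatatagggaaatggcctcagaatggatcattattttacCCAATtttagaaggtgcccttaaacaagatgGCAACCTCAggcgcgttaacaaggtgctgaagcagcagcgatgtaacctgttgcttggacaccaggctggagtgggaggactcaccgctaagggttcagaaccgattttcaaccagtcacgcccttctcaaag
PSMB9: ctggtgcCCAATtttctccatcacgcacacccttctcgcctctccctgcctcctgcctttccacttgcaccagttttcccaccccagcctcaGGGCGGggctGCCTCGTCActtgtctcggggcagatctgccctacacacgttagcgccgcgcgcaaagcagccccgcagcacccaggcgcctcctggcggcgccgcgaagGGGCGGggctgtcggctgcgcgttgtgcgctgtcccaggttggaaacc
PSMB10: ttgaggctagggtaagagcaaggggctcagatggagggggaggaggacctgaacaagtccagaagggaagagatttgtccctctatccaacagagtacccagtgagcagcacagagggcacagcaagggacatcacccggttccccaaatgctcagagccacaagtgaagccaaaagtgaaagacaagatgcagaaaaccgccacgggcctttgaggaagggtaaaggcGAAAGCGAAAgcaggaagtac
PSME3: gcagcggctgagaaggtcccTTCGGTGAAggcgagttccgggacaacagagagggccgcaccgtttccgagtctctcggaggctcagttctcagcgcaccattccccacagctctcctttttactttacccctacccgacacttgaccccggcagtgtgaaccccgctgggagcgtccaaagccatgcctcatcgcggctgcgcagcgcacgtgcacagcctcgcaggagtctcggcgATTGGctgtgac
PSME4: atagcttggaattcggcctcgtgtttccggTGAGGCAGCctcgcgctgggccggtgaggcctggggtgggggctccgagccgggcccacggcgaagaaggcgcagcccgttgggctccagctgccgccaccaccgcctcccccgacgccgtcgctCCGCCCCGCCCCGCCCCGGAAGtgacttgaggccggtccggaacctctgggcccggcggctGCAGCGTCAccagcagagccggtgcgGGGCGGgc
These lie at chr14:23035221-23035470 (minus strand), chr6:32853942-32854191 (plus), chr16:67936851-67937100 (minus), chr17:42833147-42833396 (plus) and chr2:53970994-53971243 (minus). PSMB10, alone of the 5, holds the interferon-stimulated core, in its last bases before the start. PSME4 holds runs of GC boxes that overlap an ETS core, while its transcripts are on the low side in G and C (41.5%).

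Of the 44 genes, 38 had a mean of at least 50 counts per library. The other 6 were at or near background. PSMA8, the testis alpha subunit (chr18:23713816-23773319, plus strand, hg19), and PSMB11, the thymus beta subunit (chr14:23511376-23513485, plus), had 0 to 1 counts in each library. PSMB8 (chr6:32808494-32812480, minus) had 0 to 3 counts and PSMB9 (chr6:32811913-32827362, plus) 1 to 17. PSMD5, a chaperone of base assembly (chr9:123577774-123605262, minus), had 0 to 14 counts, and PSMD15, a processed pseudogene (chr21:37858281-37859709, minus), 0 to 5. The filter on low counts (a minimum of 10 counts in 3 or more fitted libraries) let PSMB9 and PSMD5 through in the model of all 24 libraries, which makes 40 members tested there, and kept out the other 4.

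Core subunits had higher levels per length than subunits of the regulatory particle. In CPM per kilobase of the principal transcript, averaged over the 24 libraries, the median was 93.9 for the 14 constitutive core genes and 44.0 for the 17 base and lid genes. The beta ring led with a median of 115, from PSMB2 at 62.0 to PSMB4 at 244, and the alpha ring had a median of 75.4, from PSMA5 at 19.6 to PSMA7 at 150. The base ATPases had a median of 41.2 (PSMC1 at 18.3 to PSMC3 at 74.5), the other base subunits 43.2 (PSMD1 at 26.4 to the ubiquitin receptor PSMD4 at 128) and the lid 50.4 (PSMD12 at 11.8 to PSMD8 at 128). The assembly chaperones stood lower, PSMD10 at 31.0 and PSMD9 at 12.3. Among activators the levels ran from 7.78 for PSME4 to 86.4 for PSME3. The ranges of core and regulatory genes overlapped widely. With the longer gene lengths of the deposited tables the core and regulatory medians were 50.2 and 18.3, so the order held while the values fell.

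The constitutive catalytic subunits were abundant and their immune counterparts were not. PSMB5, the chymotrypsin-like subunit, stood at 94.6 CPM per kilobase, PSMB6, the caspase-like one, at 93.2 and PSMB7, the trypsin-like one, at 172. PSMB10, the immune counterpart of PSMB7, stood at 9.27. Its same-strand neighbour CTC-479C5.12 overlaps it and had a mean of 168 counts beside 159 for PSMB10, so how reads were shared between both can set its value. PSMB9 had a median of 0.446 CPM over the 24 libraries. PSMB8, with 17 counts in all libraries together, was listed at 0 in at least 1 library of each group except agoshRNA KD. In bulk RNA a few cells with much of a transcript and many cells with little of it cannot be told apart.

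Depletion of ciRS-7 moved no proteasome gene past the test. In the Wald test of DESeq2 with Benjamini-Hochberg adjustment, 0 of 39, 38, 39 and 38 members tested were called at an adjusted p under 0.05 in the agoshRNA, gRNA, pre-gRNA and lastly syn-gRNA setups. The background was also 0% of the 17802, 18371, 18717 and 18513 genes tested. At an unadjusted p under 0.05 there were 0 members in each setup, against 0%, 0.0925%, 0.0107% and 0.297% of all genes. These shares lie far below the threshold of 0.05 itself, so this fit was conservative. With a replicate block on the column letter they were 0.59%, 0.615%, 5.4% and 1.3%. The 0 members without the block thus do not show that no member changed. The quasi-likelihood test of edgeR also called 0 members and found 0 at an unadjusted p under 0.05.

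Median log2 fold changes of KD against NTC over the members tested were 0.04, 0.15, -0.06 and 0.00 in the agoshRNA, gRNA, pre-gRNA and lastly syn-gRNA setups, beside 0.06, 0.02, 0.01 and 0.00 over all genes tested. The error of such a median was not estimated. For a single member with at least 50 mean counts the median standard error was 0.406, 0.384, 0.45 and 0.145 in that order. Libraries of most letters deviated together across arms. With a replicate block on the letter these standard errors fell to 0.173, 0.196, 0.107 and 0.103. Single libraries set their sign: the median was -0.03 without agoshRNA NTC C, -0.02 without gRNA KD A and 0.10 without pre-gRNA NTC B. The width of an interval in the plasmid setups thus depends on whether the letters enter the model. For PSMB5 the 95% interval of the fold in syn-gRNA was 0.845 to 1.21 without the block and 0.886 to 1.16 with it, while in pre-gRNA it was 0.43 to 1.76 without the block and 0.753 to 0.992 with it. For PSMD14, the lid deubiquitinase, the syn-gRNA intervals were 0.838 to 1.27 and 0.879 to 1.202, and the pre-gRNA intervals 0.559 to 1.76 and 0.828 to 1.15.

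**Figure D1:**
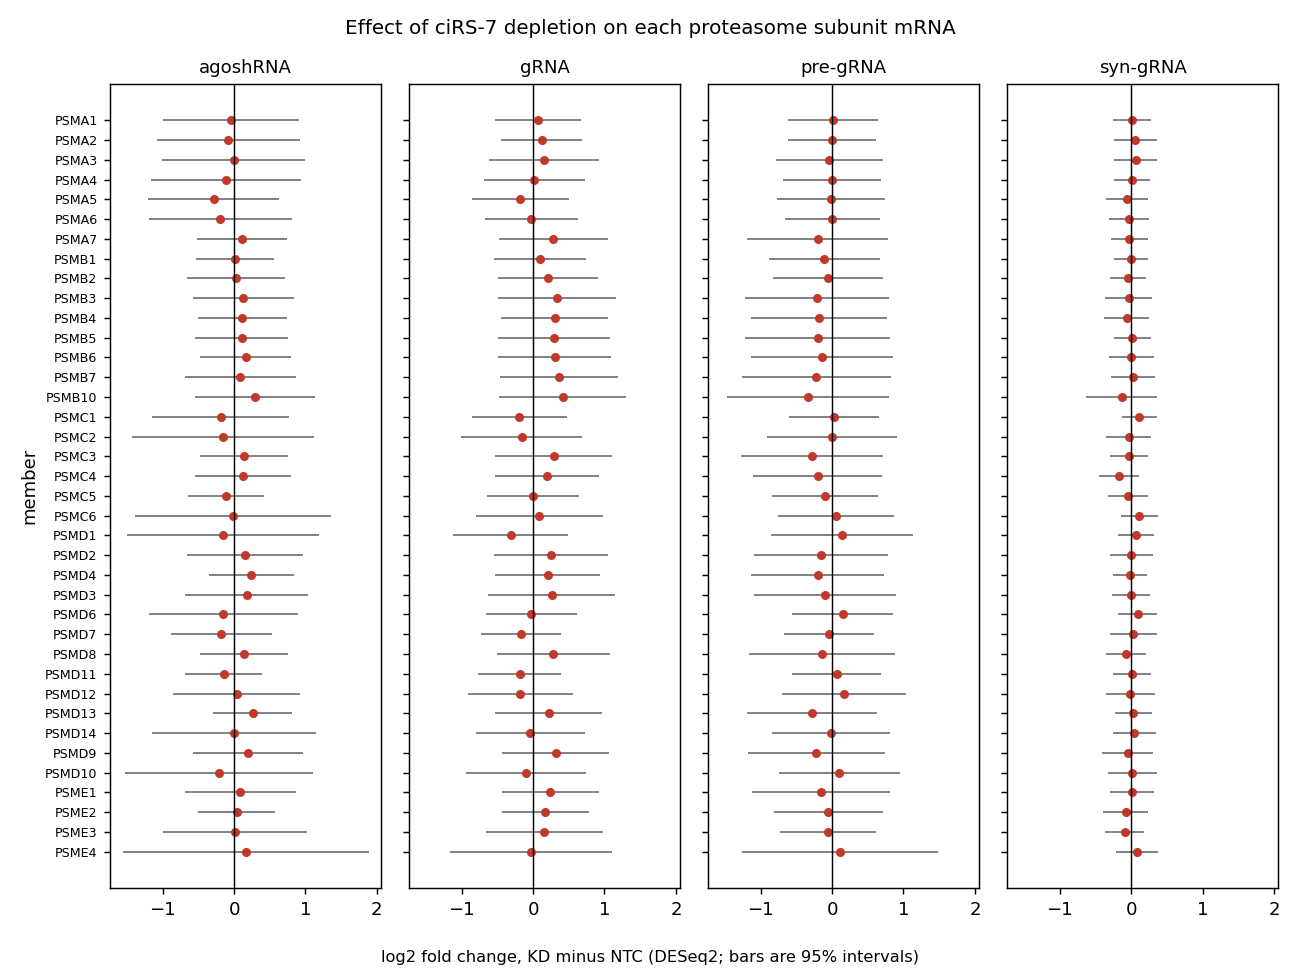
Log2 fold change of KD against NTC for the 38 proteasome genes with at least 50 mean counts in the 4 setups (dots), with 95% intervals from DESeq2 without the replicate block (bars). Intervals include 0 throughout and are narrowest in the syn-gRNA setup in this fit.

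PSMB10 had the largest or smallest fold change of the members with at least 50 mean counts in each plasmid setup. In agoshRNA its KD libraries A, B and C stood at 15.2, 6.68 and 10.4 CPM and its NTC libraries at 12.2, 7.63 and 6.98 (log2 fold change 0.29, SE 0.43, DESeq2 adjusted p = 1). In gRNA the KD libraries stood at 17.6, 10.7 and 8.31 CPM and the NTC libraries at 12.7, 10.96 and 6.43 (0.41, SE 0.45, adjusted p = 1). In pre-gRNA the KD libraries stood at 9.45, 15.2 and 6.36 CPM and the NTC libraries at 13.8, 17.6 and 6.87 (-0.34, SE 0.58, adjusted p = 1). KD and NTC overlapped in each of these setups, and the letters spread more widely than the arms. In syn-gRNA the KD libraries stood at 11.5, 13.9 and 11.1 CPM and the NTC libraries at 9.19, 12.4 and 17.96, which overlap too.

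The opposite extremes were equally unsettled. PSMA5, an alpha subunit, had the smallest value in agoshRNA (-0.29, SE 0.47), PSMD1, the base scaffold, in gRNA (-0.31, SE 0.41) and PSMC4, a base ATPase, in syn-gRNA (-0.17, SE 0.14). PSMD12, a lid subunit, had the largest in pre-gRNA (0.17, SE 0.44) and PSMC6, a base ATPase, in syn-gRNA (0.12, SE 0.13). Each had a DESeq2 adjusted p of 1.

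Groups that did not overlap, with the 3 libraries of one arm all above or all below those of the other, were about as rare among the members as among other genes. They made up 0.871%, 2.3%, 1.13% and 4.88% of all genes tested in the agoshRNA, gRNA, pre-gRNA and lastly syn-gRNA setups, and 0, 1, 0 and 1 of the members. PSMD7, a lid scaffold subunit, was the one in gRNA, with KD libraries at 75.8, 93.6 and 100.8 CPM and NTC libraries at 119, 101.4 and 103. PSMC4 was the one in syn-gRNA, with KD libraries at 52.1, 55.9 and 59.8 CPM and NTC libraries at 62.3, 62.8 and 62.7. Both were lower in KD, by margins that the test did not call.

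Within the beta ring most genes shared a sign in each setup. Of the 7 beta-ring genes 7 had a value above 0 in agoshRNA, 7 in gRNA, 0 in pre-gRNA and 2 in syn-gRNA, and none of these was called. Of the 7 alpha-ring genes the counts above 0 were 1, 5, 2 and 4. In agoshRNA the rings stood on opposite sides of 0, while in gRNA both stood mostly above it and in pre-gRNA both mostly below, and no test of a difference between rings was made. Beta genes move together from library to library, as the patterns over libraries below show, so 7 of 7 is not 7 separate observations. A replicate block on the column letter left 0 members called in each setup. With it 6 members in pre-gRNA had an unadjusted p under 0.05, PSMB3, PSMB5, PSMB7, PSMC3, PSMD4 and PSMD13, all lower in KD. They are 15.4% of the 39 members tested, beside 5.4% of all 18717 genes in the same fit. There the Spearman correlation of transcript GC content with the fold change was -0.76 over members, beside -0.61 over protein-coding genes. For PSMB5 the log2 fold change was -0.21 (SE 0.10, DESeq2 adjusted p = 0.831). The authors' deposited table gives 0 members at an unadjusted p under 0.05 in each setup. Among members with at least 50 mean counts it gives PSMB10 as the largest change in agoshRNA (0.35) and gRNA (0.42).

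The effect of KD was not found to differ between setups for any member. In the model of all 24 libraries DESeq2 called 0 of 40 members and 0% of 20172 genes in each of the 6 pairs of setups. Unadjusted p-values under 0.05 were found for 0 members, against 0.149% of genes for agoshRNA and gRNA, 0.154% for agoshRNA and pre-gRNA, 0.144% for agoshRNA and syn-gRNA, 0.178% for gRNA and pre-gRNA, 0.223% for gRNA and syn-gRNA and 0.144% for pre-gRNA and syn-gRNA. By edgeR 0 members were called and 0 had an unadjusted p under 0.05. The shares of genes by DESeq2 again lay far below the threshold of 0.05 itself, so this fit was conservative too. PSMB10 in gRNA against pre-gRNA had a difference of 0.76 on the log2 scale (SE 0.66, adjusted p = 1), an interval of the ratio from 0.687 to 4.15. With the replicate block 3 members for agoshRNA against pre-gRNA and 10 for gRNA against pre-gRNA had an unadjusted p under 0.05, which is 7.5% of the members beside 5.29% of all genes and 25% beside 9.12%, and 0 were called. The 10 belong to a set, described below, that moves together from library to library, so they are not 10 separate observations. In that fit the Spearman correlation of transcript GC content with the difference was 0.72 over members, beside 0.585 over protein-coding genes. The part of GC content in these shares was not tested.

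Between the NTC groups of different setups, which differ in vector, nuclease and guide form, DESeq2 called 0 members of 40 tested in each of 6 pairs. In either arm, setup, delivery and any batch that went with a setup cannot be told apart. Of 20172 genes the share called was 0.0496% for agoshRNA against gRNA, 0.0347% for agoshRNA against pre-gRNA, 1.84% for agoshRNA against syn-gRNA, 0% for gRNA against pre-gRNA, 1.32% for gRNA against syn-gRNA and 3.25% for pre-gRNA against syn-gRNA. At an unadjusted p under 0.05 the members numbered 0, 0, 2, 0, 1 and 3 in that order, beside 1.83%, 2.81%, 12.4%, 0.516%, 11.8% and 17.8% of all genes. The edgeR test called 0 members, with 0, 0, 2, 0, 0 and 3 at an unadjusted p under 0.05. Those shares of genes called against syn-gRNA rest on single libraries. Leaving out each library in turn, the genes called ran from 43 to 487 (371 with all libraries) for agoshRNA, from 18 to 413 (266) for gRNA and from 104 to 670 (656) for pre-gRNA, lowest without syn-gRNA NTC C in each, and 0 members were called in any of these fits. The count moved by more than 1.5 times without syn-gRNA B or C in each pair, without agoshRNA A or C, without gRNA A or C, without pre-gRNA A or B and, for gRNA, without syn-gRNA A. With all libraries, members passed at a share no higher than the background in each pair. The median log2 difference over the members tested was 0.16, -0.08, 0.09, -0.165, -0.05 and 0.07 in that order. The beta ring of 7 genes, which lines the proteolytic chamber, had 0 values above 0 in gRNA against pre-gRNA (median -0.48). It had 7 in pre-gRNA against syn-gRNA (median 0.40). The alpha ring had 1 of 7 above 0 in both (medians -0.04 and -0.29). Both pairs hold the pre-gRNA NTC libraries, so these counts are not independent. Over the members tested, the Spearman correlation of transcript GC content with the difference was -0.785 and 0.785 in these pairs. Over protein-coding genes it was -0.629 and 0.590. The part of GC content in these differences was not tested.

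No member was called between the KD groups either. DESeq2 called 0 members in the 6 pairs, in the same order of pairs, beside 0.0446%, 0.0446%, 3.14%, 0%, 1.58% and 2.52% of 20172 genes. At an unadjusted p under 0.05 there were 0, 1, 2, 0, 2 and 3 members, beside 1.75%, 2.22%, 15.2%, 0.233%, 13.4% and 14.8% of genes. The edgeR test called 0 members and gave 0, 1, 2, 0, 2 and 3 at an unadjusted p under 0.05. The 1 member of agoshRNA against pre-gRNA was PSMB9, at under 1 CPM (log2 difference 1.34, SE 0.66, adjusted p = 1). The count for agoshRNA against syn-gRNA rests on 1 library: without agoshRNA KD B, DESeq2 called 3 members, PSMA2 (-0.81, SE 0.28, adjusted p = 0.0387), PSMD6 (-1.002, SE 0.30, adjusted p = 0.0185) and PSME3 (1.08, SE 0.38, adjusted p = 0.0436), and 2183 genes in place of 634. Over the other libraries left out the genes called for this pair fell to 107, without syn-gRNA KD C, and without that library they fell from 318 to 37 for gRNA and from 508 to 109 for pre-gRNA. Counts also moved by more than 1.5 times without syn-gRNA KD B for each of these pairs, and without agoshRNA A or C, gRNA A or C and any of the pre-gRNA KD libraries for the pair of that setup.

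Among NTC groups, those that did not overlap were mostly pairs with syn-gRNA. All genes gave 6.02%, 3.11%, 18.9%, 3.9%, 29.8% and 29% in the same order of pairs, and the members 1, 0, 8, 0, 8 and 11 of 40. The 1 in agoshRNA against gRNA was PSMD5, at under 1 CPM. Higher in each plasmid setup than in syn-gRNA without overlap were the activator PSME3 and the ubiquitin receptor PSMD4. PSMA2, PSMD6, a lid subunit, and PSME2, a subunit of the interferon-inducible activator, were lower without overlap in gRNA and pre-gRNA. The 6 pairs share groups, so these are not independent counts. PSMA2 overlaps MRPL32 and RP11-111K18.1, PSMD7 overlaps AC009120.6 and PSME2 overlaps RNF31, which leaves their counts uncertain in part.

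PSME3, which encodes the nuclear activator PA28 gamma (chr17:40976402-40995775, plus strand, hg19), had the largest positive difference from syn-gRNA among the members with at least 50 mean counts in each of the 3 pairs. Its NTC libraries A, B and C stood at 151, 59.97 and 75.5 CPM in agoshRNA, at 135, 73.2 and 83.3 in gRNA, and at 131, 80.5 and 88.6 in pre-gRNA. In syn-gRNA they stood at 58.0, 55.3 and 51.0, below each of the others. Against syn-gRNA NTC the log2 difference was 0.75 (SE 0.35, DESeq2 adjusted p = 0.334) for agoshRNA, 0.67 (SE 0.35, adjusted p = 0.45) for gRNA and 0.83 (SE 0.35, adjusted p = 0.178) for pre-gRNA. None of these passed the test.

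The KD libraries of PSME3 were also lowest in syn-gRNA, while the order of the plasmid setups was not the same as in NTC. They stood at 154, 57.0 and 72.8 CPM in agoshRNA, at 140.0, 73.1 and 82.1 in gRNA, at 121, 85.8 and 86.6 in pre-gRNA and at 50.1, 51.1 and 53.6 in syn-gRNA. Within the plasmid setups the library of letter A was highest in both arms. Letter A libraries of those setups spanned 121 to 154 CPM (n = 6), the other letters 57.0 to 88.6 (n = 12) and syn-gRNA 50.1 to 58.0 (n = 6). Of 13835 genes with at least 50 mean counts, 725 (5.24%) had the same 6 libraries above the other 18 and 19 (0.137%) had them below, and PSME3 was the only such member. BECN1, an autophagy gene that overlaps PSME3 on the opposite strand, spanned 34.5 to 66.3, 34.4 to 60.3 and 38.7 to 53.7 CPM in those 3 sets of libraries, which overlap. The counts are not stranded, so reads in the shared stretch cannot be assigned to either gene.

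PSMD4 in NTC had 194, 155 and 142 CPM in agoshRNA, 202, 174 and 147 in gRNA, 220.3, 271 and 159 in pre-gRNA, and 132, 127 and 132 in syn-gRNA. Pre-gRNA against syn-gRNA gave the largest of the 3 differences for this ubiquitin receptor, 0.75 (SE 0.32, DESeq2 adjusted p = 0.178). PSMD6 in NTC had 66.5, 114 and 90.6 CPM in agoshRNA, 82.5, 79.1 and 89.5 in gRNA, 73.2, 45.2 and 85.0 in pre-gRNA, and 107, 111 and 113 in syn-gRNA. Its pre-gRNA against syn-gRNA difference was -0.77 (SE 0.32, adjusted p = 0.166). The syn-gRNA NTC libraries lay close together for both genes, as did those of gRNA for PSMD6. For PSMD4 the pre-gRNA libraries spread most, while for PSMD6 those of agoshRNA and pre-gRNA both spread widely. PSMD7 was 0.51 higher in agoshRNA NTC than in syn-gRNA NTC (SE 0.21, DESeq2 adjusted p = 0.23), and PSME2 was 0.48 lower in gRNA NTC than in syn-gRNA NTC, a log2 difference of -0.48 (SE 0.22, DESeq2 adjusted p = 0.347).

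The other extremes of the NTC pairs lay on groups that overlapped. PSMA6, an alpha subunit, had the largest difference of agoshRNA from gRNA, with 77.7, 125 and 88.4 CPM against 75.7, 78.6 and 89.8 (log2 difference 0.41, SE 0.31). PSMD1 had the largest of gRNA from pre-gRNA, with 102, 96.7 and 119 CPM against 82.3, 40.6 and 113 (0.37, SE 0.49). The chaperone PSMD9 had the smallest of that pair, with 33.5, 33.6 and 25.3 CPM against 42.6, 52.2 and 30.4 (-0.60, SE 0.365). Base and core genes both stood among these extremes. PSMC6 had the smallest difference of gRNA from syn-gRNA, with 41.2, 60.2 and 91.9 CPM against 93.1, 88.2 and 91.2 (-0.63, SE 0.48). PSMB10, with the NTC values given above, had the smallest of agoshRNA from pre-gRNA (-0.59, SE 0.47) and from syn-gRNA (-0.60, SE 0.47). PSMD6 had the largest of agoshRNA from pre-gRNA (0.49, SE 0.32) and PSME4 the smallest of agoshRNA from gRNA (-0.14, SE 0.73). The DESeq2 adjusted p of these 7 genes ran from 0.712 to 1.

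**Figure D2:**
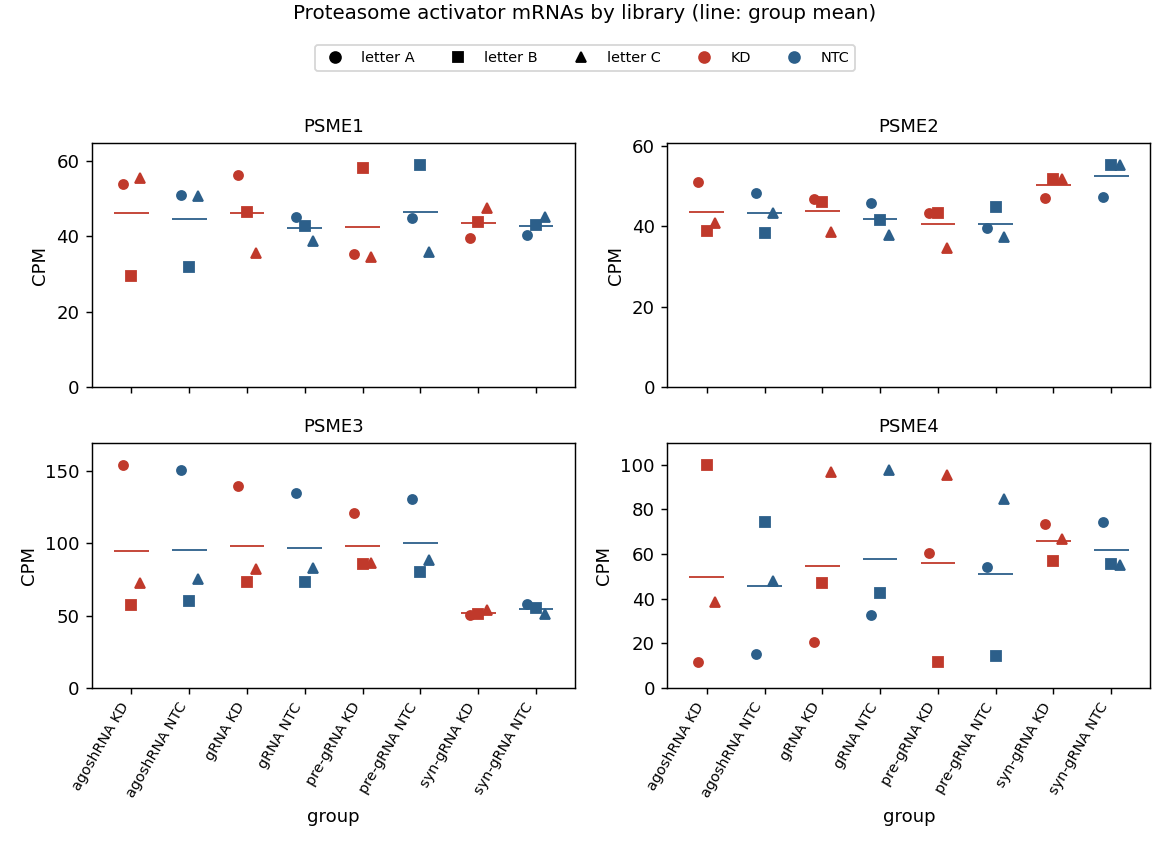
CPM of the 4 activator genes PSME1 to PSME4 in each of the 24 libraries, by setup, arm (colour) and letter (shape), with lines at group means. PSME3 is highest in the letter A libraries of the plasmid setups (121 to 154 CPM) and PSME4 runs from 11.4 to 99.8 CPM, while PSME2 varies little.

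The remaining variation lay between libraries and was shared by the KD and NTC libraries of most letters. Over the 38 genes with at least 50 mean counts, the correlation of deviations from the group mean between libraries of the same letter ran from -0.10 in gRNA B and -0.09 in syn-gRNA C to 0.99 in pre-gRNA B. PSME4, which encodes the activator PA200 (chr2:54091204-54197977, minus strand, hg19), had 11.4, 99.8 and 38.3 CPM in the agoshRNA KD libraries A, B and C and 15.0, 74.4 and 47.8 in NTC. In gRNA it had 20.4, 47.2 and 96.7 CPM in KD and 32.6, 42.3 and 97.9 in NTC. In pre-gRNA it had 60.5, 11.5 and 95.7 CPM in KD and 54.1, 14.0 and 84.6 in NTC. The arms follow each other by letter, and which letter is low differs between setups. In syn-gRNA the values were closer, 73.4, 56.7 and 66.8 CPM in KD and 74.5, 55.7 and 54.9 in NTC.

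PSME4 spanned 8.78-fold between its lowest and highest library, a ratio that 7.55% of 11758 protein-coding genes exceed. The median ratio of the 38 members was 2.30, beside 3.20 for protein-coding genes, and 7 of 38 (18.4%) exceeded 3-fold, beside 55.2%. The protein-coding genes had at least 50 mean counts but were not matched to the members in abundance, so these ratios are not a like comparison. The steadiest were the beta subunit PSMB1 at 1.39, the base ATPase PSMC5 at 1.47 and PSME2 at 1.59.

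The genes fell into opposed sets over the 24 libraries. With PSME4, 16 of the other 37 genes had a positive Pearson correlation of log2 levels and 21 a negative one. The positive set held 6 of 7 alpha-ring genes, with PSMA7 the exception, the ATPases PSMC1, PSMC2 and PSMC6, the scaffold PSMD1, 5 lid genes including PSMD14, and the chaperone PSMD10. The negative set held 7 of 7 beta-ring genes, PSMA7, PSMB10, PSMC3, PSMC4, PSMC5, PSMD2, PSMD4, the lid genes PSMD3, PSMD8 and PSMD13, PSMD9 and the activators PSME1, PSME2 and PSME3. Correlations reached 0.94 for PSMC2 and -0.92 for PSMB6. Partners in 1 complex thus had opposite patterns, and so had partners in 1 ring, since PSMA7 had a correlation of -0.88 beside 0.91 for PSMA3. The points share libraries, setups and letters, so these are descriptions over 24 libraries, with no test.

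GC content moved with this split. The transcripts of the positive set had 39.5 to 47.3% GC (median 43.6%) and those of the negative set 44.5 to 61.9% (median 52.1%). Over the 37 genes the Spearman correlation of GC content with the correlation to PSME4 was -0.82. Within a library the Spearman correlation of GC content with a gene's deviation ran from -0.84 to 0.86 over the 38 genes, and from -0.85 to 0.81 over 11758 protein-coding genes, so the proteasome genes share the pattern of the whole library. The mean GC content of counted genes, weighted by counts, ran from 48.6% in agoshRNA KD B to 53.4% in pre-gRNA NTC B. Over the members, the Spearman correlation of GC content with the KD log2 fold change was 0.69 in agoshRNA, 0.69 in gRNA, -0.78 in pre-gRNA and -0.53 in syn-gRNA, beside 0.33, 0.52, -0.64 and -0.37 over protein-coding genes. The part of GC content in the fold changes above, those of the beta ring and PSMB10 included, was not tested.

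PSMB5 shows the high-GC side of this pattern. For agoshRNA its KD libraries stood at 165, 93.4 and 145 CPM and its NTC libraries at 147, 109 and 124. For gRNA they stood at 183, 110.01 and 94.98 with KD and at 135, 119 and 91.4 with NTC, and for pre-gRNA at 112, 179.6 and 92.3 with KD and at 139, 192 and 101 with NTC. The syn-gRNA libraries stood at 104, 104 and 95.8 CPM with KD and at 97.4, 101 and 100.4 with NTC. In each KD and NTC group of the plasmid setups the library with the most PSMB5 was the one with the least PSME4.

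The other catalytic subunits repeat it. PSMB6 had 107, 64.0 and 86.5 CPM in the agoshRNA KD libraries and 94.7, 70.7 and 67.8 in NTC, and 121, 69.7 and 63.2 with KD and 84.9, 79.5 and 59.97 with NTC in gRNA. In pre-gRNA it had 76.8, 119.7 and 61.4 CPM with KD and 87.0, 121 and 69.1 with NTC, and in syn-gRNA 63.4, 69.4 and 69.4 with KD and 58.2, 72.5 and 69.9 with NTC. KD and NTC overlapped in each setup, with log2 fold changes from -0.14 (SE 0.51) in pre-gRNA to 0.30 (SE 0.40) in gRNA. PSMB7 had 211, 148.5 and 129 CPM in the agoshRNA KD libraries and 191, 169.7 and 103 in NTC, and 263, 167 and 125 with KD and 190.05, 169 and 113 with NTC in gRNA. For pre-gRNA it had 159, 246 and 122 CPM with KD and 197, 273 and 128 with NTC, and in syn-gRNA 153, 164 and 159 with KD and 134, 164 and 166 with NTC. Its arms overlapped in each setup as well, with log2 fold changes from -0.22 (SE 0.53) in pre-gRNA to 0.36 (SE 0.42) in gRNA. Each had a DESeq2 adjusted p of 1.

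The deubiquitinase PSMD14 lay on the other side, with a positive correlation to PSME4. It had 28.6, 85.9 and 57.5 CPM in the agoshRNA KD libraries and 42.6, 78.7 and 55.9 in NTC, and 39.1, 49.7 and 75.7 with KD and 47.3, 50.4 and 79.9 with NTC in gRNA. In pre-gRNA this gene had 57.6, 32.7 and 81.4 CPM with KD and 54.3, 37.4 and 77.1 with NTC, and in syn-gRNA 63.0, 43.8 and 55.8 with KD and 57.0, 46.9 and 52.6 with NTC. Its KD and NTC libraries overlapped in each setup, and its log2 fold changes lay between -0.04 (SE 0.39) in gRNA and 0.05 (SE 0.15) in syn-gRNA, each with a DESeq2 adjusted p of 1.

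PSME1 and PSME2 encode the subunits of the interferon-inducible activator PA28. PSME1 had 53.8, 29.6 and 55.6 CPM in the agoshRNA KD libraries and 51.0, 31.8 and 50.8 in NTC, and 56.3, 46.5 and 35.5 with KD and 45.1, 42.7 and 38.7 with NTC in gRNA. With pre-gRNA it had 35.2, 58.1 and 34.6 CPM with KD and 44.8, 58.9 and 35.9 with NTC, and in syn-gRNA 39.5, 43.8 and 47.5 with KD and 40.3, 42.9 and 45.1 with NTC. Its arms overlapped in each setup, with log2 fold changes from -0.155 (SE 0.49) in pre-gRNA to 0.24 (SE 0.35) in gRNA. PSME2 had 51.0, 38.7 and 40.8 CPM in the agoshRNA KD libraries and 48.2, 38.3 and 43.3 in NTC, and 46.7, 45.9 and 38.5 with KD and 45.8, 41.6 and 37.9 with NTC in gRNA. For the pre-gRNA setup it had 43.3, 43.3 and 34.7 CPM with KD and 39.7, 44.8 and 37.4 with NTC, and in syn-gRNA 46.9, 51.8 and 51.8 with KD and 47.4, 55.2 and 55.1 with NTC. PSME2 overlapped between the arms in each setup too, with log2 fold changes from -0.08 (SE 0.16) in syn-gRNA to 0.17 (SE 0.31) in gRNA. Each of these had a DESeq2 adjusted p of 1.

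The balance of core and regulatory particle genes overlapped between KD and NTC in each setup. The mean log2 of CPM plus 0.5 over the 14 core genes minus that over the 17 base and lid genes was, for agoshRNA, 0.47 ± 0.12 with KD against 0.45 ± 0.10 with NTC (SD, n = 3). For gRNA it was 0.48 ± 0.17 against 0.34 ± 0.03, for pre-gRNA 0.41 ± 0.21 against 0.44 ± 0.18 and for syn-gRNA 0.48 ± 0.04 against 0.49 ± 0.11. By library A, B and C it was 0.58, 0.34 and 0.49 in agoshRNA KD, 0.67, 0.41 and 0.36 in gRNA KD and 0.28, 0.65 and 0.29 in pre-gRNA KD. The NTC libraries stood at 0.55, 0.46 and 0.35 in agoshRNA, 0.33, 0.37 and 0.31 in gRNA and 0.35, 0.65 and 0.32 in pre-gRNA. In gRNA the KD library lay above the NTC library of the same letter at all 3 letters, mostly at A (0.67 against 0.33). The highest values were those of gRNA KD A, both pre-gRNA B libraries and agoshRNA KD A. Their mean GC content weighted by counts was 53.2 to 53.4%. In syn-gRNA NTC B the score was 0.55 at 50.2%. The part of GC content in this score was not tested. In syn-gRNA the libraries stood at 0.43, 0.50 and 0.50 with KD and at 0.36, 0.55 and 0.54 with NTC. The KD and NTC means of a setup differed by less than the larger of both SDs. No test was made of this score.

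**Figure D3:**
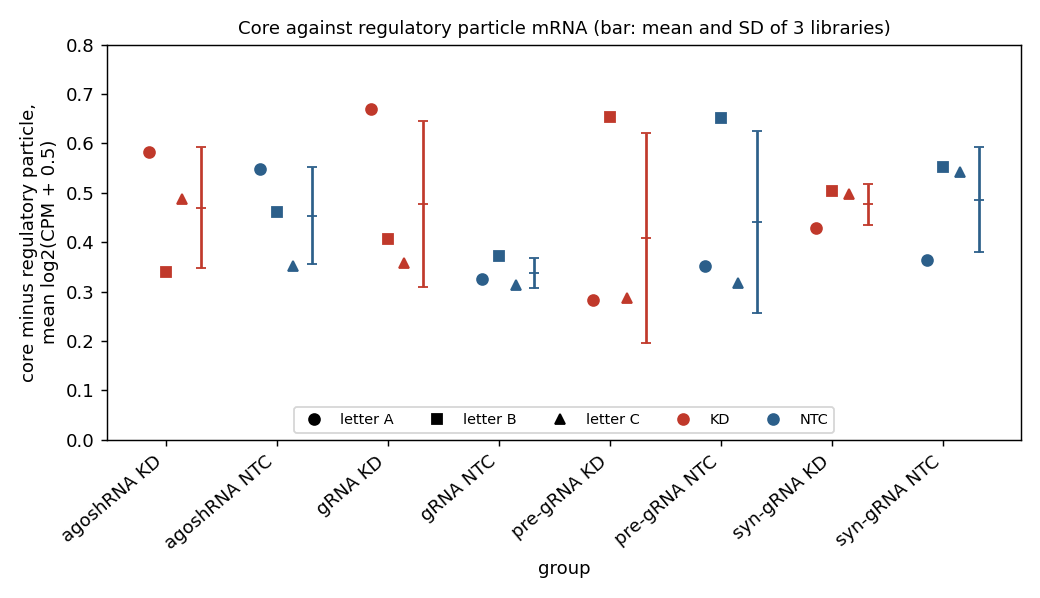
Difference between the mean log2 level of 14 core genes and of 17 regulatory particle genes in each library (letters by shape, arms by colour), with the mean and SD of the 3 libraries beside them. Group means lie between 0.34 and 0.49, and the spread of single libraries runs from an SD of 0.03 in gRNA NTC to 0.21 in pre-gRNA KD.

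Of 36 other genes of the pathway, in lists of associated factors, assembly factors, transcription and import factors, shuttles, ubiquitin genes and antigen processing, 35 were tested (not GBP1, listed near 0). KD against NTC called 0 of them in each setup, by DESeq2 and by edgeR, with 0 at an unadjusted p under 0.05 by either, and their median log2 fold changes lay between -0.02 and 0.13. Between setups only comparisons with syn-gRNA gave calls among them, for AKIRIN2 and PAAF1. AKIRIN2 was the 1 call of 35 in each such pair, joined by PAAF1 in pre-gRNA NTC. Of all genes DESeq2 called 1.84%, 1.32% and 3.25% in the NTC pairs of agoshRNA, gRNA and pre-gRNA, and 3.14%, 1.58% and 2.52% in KD. At an unadjusted DESeq2 p under 0.05 stood 3, 6 and 11 of 35 in NTC, beside 12.4%, 11.8% and 17.8% of all genes. In KD there were 4, 5 and 7, beside 15.2%, 13.4% and 14.8%. AKIRIN2, which carries proteasomes into the nucleus, had 87.5, 66.4 and 86.1 CPM in agoshRNA NTC, 110.3, 94.8 and 86.3 in gRNA NTC, 123, 59.7 and 90.0 in pre-gRNA NTC and 139, 144 and 146 in syn-gRNA NTC. The plasmid setups lay below syn-gRNA without overlap, by log2 differences of -0.86 (SE 0.18, DESeq2 adjusted p = 0.00104), -0.71 (SE 0.18, adjusted p = 0.016) and -0.72 (SE 0.18, adjusted p = 0.00691). The KD groups gave -0.80 (adjusted p = 0.00223), -0.75 (adjusted p = 0.0067) and -0.65 (adjusted p = 0.0217). These 3 comparisons in each arm share the syn-gRNA libraries. The call depends on the test: by edgeR the adjusted p ran from 0.064 to 0.175 over the 6 comparisons, none of them called. Leaving out single libraries kept 6 of 6 fits called for agoshRNA in either arm, and 1 to 3 of 6 for the others, where the adjusted p reached 0.0983 to 0.22. Fitted on the libraries of a pair alone, DESeq2 gave adjusted p-values of 0.0254 and 0.0266 for agoshRNA and gRNA NTC and 0.117 to 0.278 for the other 4 comparisons. PAAF1, an inhibitory chaperone of regulatory particle assembly, was 0.90 higher in pre-gRNA NTC than in syn-gRNA NTC (SE 0.28, DESeq2 adjusted p = 0.0487, edgeR adjusted p = 0.134), with 46.6, 45.2 and 34.6 CPM against 27.8, 19.0 and 21.0. This call was also lost with TMM factors (adjusted p = 0.0563), on the libraries of the pair alone (0.0665) and in 4 of 6 fits that left out 1 library, where the adjusted p ran from 0.0289 to 0.303.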

How the data were processed

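Polyadenylated RNA of 24 libraries was analysed from 4 deposited tables of raw read counts, which the authors made with Trim Galore, STAR 2.7.3a and featureCounts on hg19, per the submitters' processing notes. All 4 tables held equal counts. The log2 fold changes and p-values of the authors' deposited comparisons come from DESeq2, named in the same notes. A further 96 columns of per-sample values were not used. GC content and principal transcripts come from GENCODE release 29, in which 93.2% of gene identifiers and each of the 44 members were found.

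Counts were tested with DESeq2 1.42.0 in R 4.3.3, with its Wald test and its size factors. Genes needed at least 10 counts in at least 3 fitted libraries. Benjamini-Hochberg adjustment ran over the genes tested, and genes were called at an adjusted p under 0.05. The code was first checked on simulated counts. Those held no shifts shared by letter or GC content, so the check does not bear on power in these libraries. KD was compared with NTC on the 6 libraries of a setup, and setups in 1 model of 24 libraries. Alternatives were edgeR 4.0.16, TMM factors, no filter, other sets of libraries, a replicate block on the column letter, and leaving out each library. Libraries of most letters deviated together across the arms of a setup. For the same letter the correlation of deviations from group means was 0.279 to 0.946 over all genes and -0.10 to 0.99 over the members. For different letters it was -0.903 to 0.362 and -0.975 to 0.763. In syn-gRNA the pairing was weak for letters B (0.319, all genes) and C (0.279), beside 0.311 for KD B with NTC C. Over members, gRNA KD B had 0.47 with NTC C and -0.10 with NTC B. Library totals of 10994974 to 16233777 set the counting precision.

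Named by rule were the catalytic and immune beta subunits, PSMD4, PSMD14, the activators, called members, the extremes of KD and NTC comparisons among members with at least 50 mean counts, and members under the filter, of which those near background and PSMB9 are given by range. Other genes named (among them PSMA2, PSMD7, AKIRIN2 and PAAF1) were picked with their values in view. The members and lists were chosen with earlier results of these data known. Of the 44 genes, 26 overlap another gene, and 12 overlap one with at least 0.5 times as many counts; libraries were not stranded, per the labels' protocols. Proteins were not analysed here.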

Additional observations from a re-analysis of the deposited data

How the results depend on the processing

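The count of members called stayed the same in 259 of 260 values over 22 comparisons under other tests, scalings, filters, sets of libraries, the replicate block and leaving out single libraries. The exception was KD of agoshRNA against syn-gRNA without agoshRNA KD B, with 3 called (range 0 to 3). The difference between core and regulatory particle stayed within 1 SD in 90 of 90 values. Of 614 values of single members, 611 kept their side of the threshold and 72 had the other sign while uncalled.

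The median log2 fold change of the members stayed within its spread in 85 of 104 values, and each of the other 19 left out 1 library. For KD against NTC these medians ran from -0.034 to 0.15 in agoshRNA, -0.024 to 0.257 in gRNA, -0.232 to 0.096 in pre-gRNA and -0.063 to 0.042 in syn-gRNA. For NTC they ran from 0.029 to 0.2 for agoshRNA against gRNA, -0.216 to 0.077 for agoshRNA against pre-gRNA, -0.035 to 0.131 for agoshRNA against syn-gRNA, -0.3 to -0.055 for gRNA against pre-gRNA, -0.089 to 0.001 for gRNA against syn-gRNA and 0.018 to 0.308 for pre-gRNA against syn-gRNA. The cause was not tested, beyond there being fewer libraries. With the replicate block the KD medians were 0.02, 0.14, -0.07 and 0.00, and no call on a member changed.

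Counts over all genes moved more. On the 6 libraries of a pair alone, DESeq2 called 1018 genes in place of 266 for gRNA against syn-gRNA NTC, 1319 in place of 656 for pre-gRNA against syn-gRNA NTC, and 235 in place of 634 for agoshRNA against syn-gRNA KD. By edgeR these were 0, 149 and 192. Without the block, the spread between letters in the plasmid setups widens the intervals of a member there. For PSMB8, PSMA8, PSMB11 and PSMD15 the counts are too few for any comparison.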
